A study of Mus musculus with 15 samples.

Results

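The genes described here are 10 markers of motor neuron subtypes, taken by symbol from the 36144 genes of the deposited expression table. The alpha/fast list holds Mmp9, Chodl, Calca, Calcb and Rbfox3, and the gamma/slow list holds Esrrg, Esrrb, Htr1d, Wnt7a and Gfra1. Spp1, another alpha and fast marker, is not a member and appears among the further genes. Members were picked by symbol, and all 10 were among the 15425 genes with at least 1 TPM, transcripts scaled by length to a fixed library total, in at least 3 libraries. For Htr1d, 7 of the 15 libraries reached 1 TPM, and for the other 9 members all 15 did.

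Motor neurons of spinal segments L1 to L3 that carried the retrograde tracer cholera toxin subunit B were laser-captured from FVB-background mice at postnatal day 6, and their polyadenylated RNA was sequenced in 15 libraries. All mice carried the SMN2 and SMNΔ7 transgenes. WT libraries (n = 3) came from Smn+/+ littermates given vehicle, and SMA libraries (n = 3) from Smn-/- mice given vehicle, a model of spinal muscular atrophy. The other 9 libraries came from Smn-/- mice given 1 of 3 compounds, with 3 libraries each: MW150, an inhibitor of the kinase p38 alpha, at 5 mg/kg, Pifithrin-alpha, an inhibitor of p53, at 2.2 mg/kg, and SMN-C3, which promotes full-length splicing of SMN2, at 3 mg/kg. Mice were injected into the peritoneum every day from postnatal day 0 on. Both sexes were used in equal proportion. The labels call the libraries biological replicates but do not say how many animals each holds or where the tracer was injected, so p-values measure the spread between these libraries. Libraries are named by group and replicate number, such as SMA 3.

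Alpha motor neurons drive the force-generating fibres of a muscle, and the fast type among them contacts fast-twitch fibres; gamma motor neurons set the sensitivity of muscle spindles by contracting the small fibres inside them. Mmp9 and Chodl mark fast alpha motor neurons, Rbfox3 encodes NeuN, which is strong in alpha and weak in gamma neurons, and the nuclear receptor Esrrg is the usual gamma marker. Subtype identity is still maturing in the first postnatal weeks. Each library pools many cells, and in such bulk samples fewer cells of a type and less RNA per cell cannot be told apart.

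The start sites of Chodl and Calca are shown because these were the abundant members with the clearest separation of SMA from WT. Both stretches are the 250 bases before the RefSeq start (GRCm38.p6), written 5′ to 3′ on the gene's strand, at chr16:78930698-78930947 (plus strand) for Chodl and chr7:114636358-114636607 (minus strand) for Calca. Capitals mark the 1 motif found.
Chodl: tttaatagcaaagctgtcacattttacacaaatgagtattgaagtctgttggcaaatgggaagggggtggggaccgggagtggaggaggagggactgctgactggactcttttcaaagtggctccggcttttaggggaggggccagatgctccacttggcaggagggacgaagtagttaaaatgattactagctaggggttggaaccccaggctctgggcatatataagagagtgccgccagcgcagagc
Calca: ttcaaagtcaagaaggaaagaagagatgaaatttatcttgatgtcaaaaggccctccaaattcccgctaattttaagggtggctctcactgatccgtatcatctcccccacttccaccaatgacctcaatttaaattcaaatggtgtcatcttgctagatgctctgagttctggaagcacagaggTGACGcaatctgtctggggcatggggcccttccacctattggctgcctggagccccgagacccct
Searches ran on both strands from 250 bases before to 50 after the start for TATAAA, the cyclic AMP response element TGACGTCA, the shorter TGACG that lies within it, and the estrogen-related receptor element AAGGTCA. The window of Calca held TGACG, 65 bases before the start, and that of Chodl held none of the motifs. Over all 32851 RefSeq windows of this length, TATAAA was in 13.6%, TGACGTCA in 1.79%, TGACG in 20.8% and AAGGTCA in 4.72%. These matches describe letters only.

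The libraries carried motor neuron RNA. All 10 markers of motor neuron identity (Chat, Isl1 and others) were above 0 in each of the 15 libraries, with a summed level of 9931 to 16845 TPM. Smn1 lay at 8.97 to 23.3 TPM in WT and at 0 to 1.498 TPM in every other library. The mitochondrial genome supplied 21.9% of WT 1 and 20.4% of SMA+Pifithrin-alpha 3, against 3.76% to 12.6% of the other libraries, so changes between SMA and WT that moved by more than 1.5 times without WT 1 are also given without it. TPM keeps no read depth. TPM is scaled by length, and levels of different genes are set side by side on that basis. How evenly reads covered each gene was not examined.

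In WT motor neurons the calcitonin gene-related peptide genes were the most abundant members. Calca, which encodes alpha-CGRP, ranked 40th of the 36144 genes by mean TPM, Calcb, which encodes beta-CGRP, ranked 123rd, and Chodl ranked 249th. The order of mean levels in WT was Calca, Calcb, Chodl, Rbfox3, Gfra1, Esrrg, Mmp9, Wnt7a, Esrrb and Htr1d. Neighbours whose libraries did not overlap were Calca above Calcb, Chodl above Rbfox3, Esrrg above Mmp9 and Esrrb above Htr1d. The remaining neighbours overlapped. In SMA, Mmp9 stood ninth instead of seventh by mean level, although its libraries overlapped those of Esrrb.

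**Figure D1:**
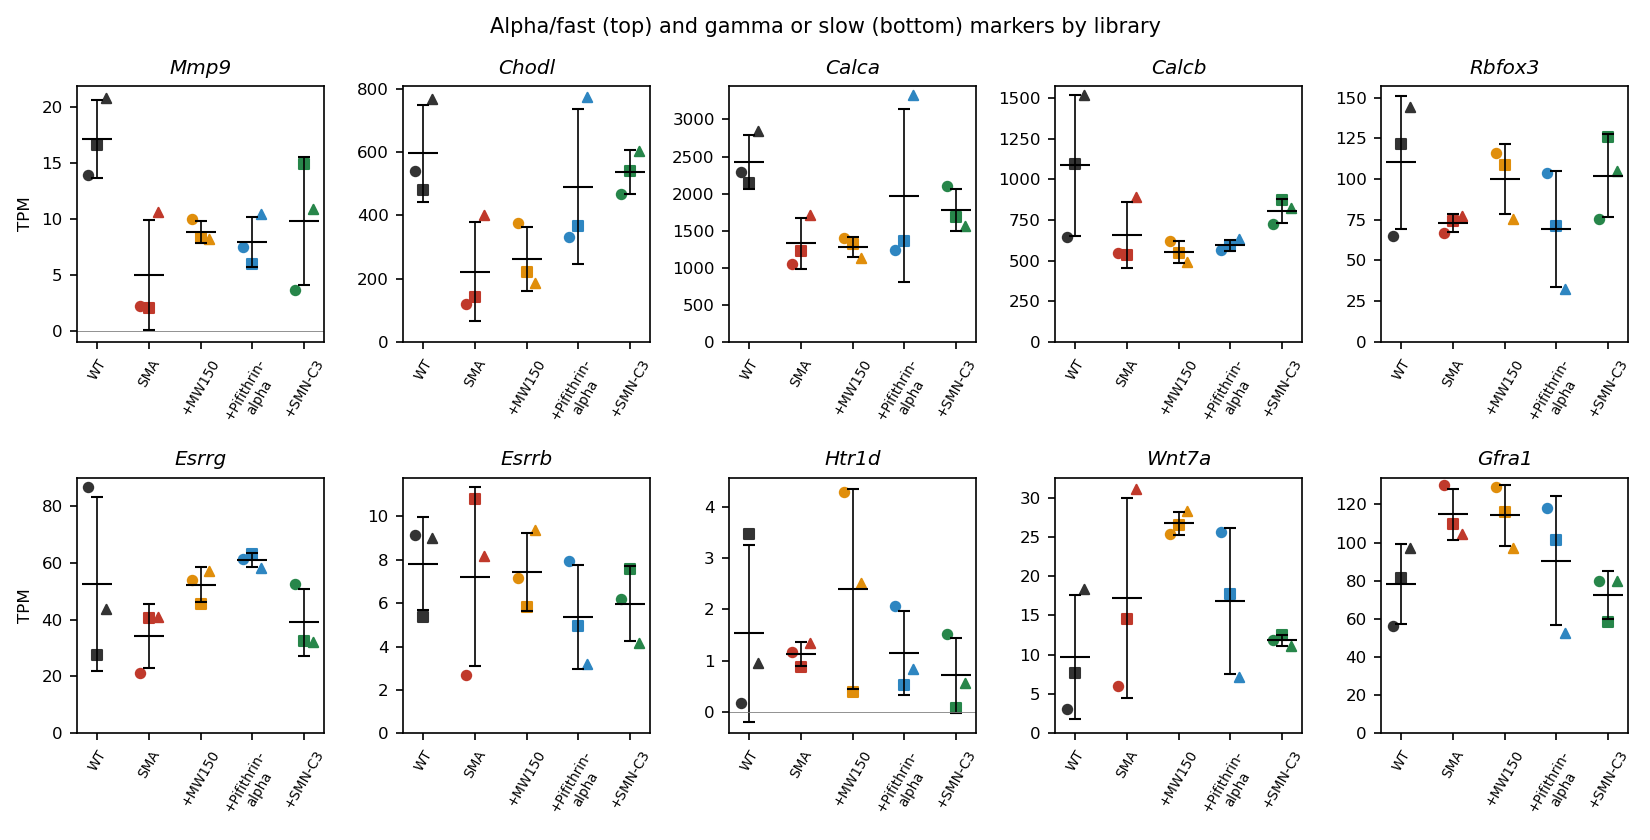
TPM of the 10 markers (vertical axes from 0 or just below it, 1 panel per gene) in the 5 groups. Circles, squares and triangles are replicates 1, 2 and 3, the horizontal bar is the mean and the whiskers are 1 SD (n = 3). Chodl sits at 480.0 to 769 TPM in WT and 119 to 401 TPM in SMA without overlap, whereas Esrrb and Htr1d overlap between all groups.

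The first comparison asks how subtype markers differ between SMA and WT motor neurons. No member was called, at a limma p under 0.05 after Benjamini-Hochberg adjustment over all tested genes; over those genes 56 (0.363%) were called. The alpha/fast members all had lower means in SMA, 5 of 5, with a median log2 change of -0.89, against a median of 0.24 over all tested genes. Mmp9, Chodl and Calca were lower without overlap of the libraries, 3 of 5; 3.81% of all tested genes were. Of the gamma/slow members 2 had higher and 3 lower means, with a median log2 change of -0.04, and Gfra1 was higher without overlap, as were 14.5% of all tested genes. Without adjustment 4 of the 10 members had a p under 0.05, all of them alpha/fast, against 13.5% of tested genes.

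Mmp9 (ENSMUSG00000017737.2, chr2:164940780-164955850, plus strand) encodes a secreted metalloproteinase that cuts extracellular matrix. It measured 13.96, 16.6 and 20.8 TPM in the WT libraries and 2.24, 2.12 and 10.7 TPM in the SMA libraries. SMA 1 and SMA 2 were far below WT, and SMA 3 lay just below the lowest WT library. The log2 change on the log2(TPM + 1) scale, used for every change here, was -1.87 (SE 0.50, 95% interval -2.92 to -0.82, limma adjusted p 0.15). Of all tested genes, 0.156% had a change as low or lower. Without SMA 3 the change was -2.49 and called (adjusted p 0.028). With other single libraries left out it was as weak as -1.54, and over all alternatives the limma adjusted p reached 0.47.

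A large part of the WT level of Mmp9 was assigned to a short transcript. Mmp9-204 is a non-coding model of 2 exons and 1125 bases at the end of the gene, against 13 exons and 3175 bases in the full-length Mmp9-201. Its first exon (chr2:164954386-164954432, GENCODE M21 on GRCm38) lies in an intron of Mmp9-201, and its second is shared. The stretch that tells it apart is shown, with the 47 bases absent from Mmp9-201 in capitals and the next 30, which both hold, in lower case.
Mmp9-204: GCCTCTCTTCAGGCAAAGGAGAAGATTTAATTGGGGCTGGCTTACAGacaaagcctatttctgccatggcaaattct
Mmp9-204 took 79.8%, 57.9% and 31.2% of the gene's TPM in the WT libraries and 22.6%, 40.5% and 0% in the SMA libraries. Its share was highest in WT 1 and, among the rest, in SMA+Pifithrin-alpha 3 (63.0%), the libraries of highest mitochondrial share. The coding transcripts of Mmp9 summed to 2.81, 6.999 and 14.3 TPM in WT and to 1.73, 1.26 and 10.7 TPM in SMA. On these the groups overlapped, and the log2 change was -0.90 (SE 0.61, limma adjusted p 0.46). The part of library quality in the share of Mmp9-204 was not tested.

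Chodl (ENSMUSG00000022860.15, chr16:78930948-78951733, plus strand) encodes chondrolectin, a membrane protein with a lectin domain. Its WT libraries measured 539, 480.0 and 769 TPM and its SMA libraries 119, 143 and 401 TPM. Every SMA library was below every WT library, and again SMA 3 was the highest of its group. The log2 change was -1.61 (SE 0.41, 95% interval -2.49 to -0.74, limma adjusted p 0.14), and 0.324% of tested genes had a change as low or lower. Without SMA 3 it was -2.15 and called (adjusted p 0.022). At the weak end of the fits with 1 library left out it was -1.28, and the limma adjusted p reached 0.47 over all alternatives. The full-length coding transcript Chodl-201 held 98.2% to 99.9% of the gene in every library and its non-coding model Chodl-204 at most 0.307%. Over the 5 groups at once Chodl had the lowest p of the members (limma F test, p 0.0038, adjusted p 0.29); 0 members and 34 genes (0.22%) were called by that test, and 3 members (Chodl, Mmp9 and Calcb) had an unadjusted p under 0.05, against 9.46% of genes.

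Calca (ENSMUSG00000030669.13, chr7:114631478-114636357, minus strand) yields alpha-CGRP in neurons and calcitonin in the thyroid, by a choice between exons at its 3′ end. It measured 2296, 2139.6 and 2842 TPM in WT and 1045, 1223 and 1714 TPM in SMA, with no overlap. The log2 change was -0.89 (SE 0.32, 95% interval -1.56 to -0.22, limma adjusted p 0.30). Transcripts that end in the calcitonin exon, Calca-202 and Calca-207, summed to between 0.236 and 2.38 TPM, at most 0.188% of the gene. The CGRP form Calca-201 stood at 881 to 2641 TPM, so the measured Calca RNA was of the CGRP type in all groups.

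Calca also had a short model that reached high values in the same pair of libraries as Mmp9-204. Calca-203 keeps part of an intron and has 2 exons and 568 bases, against 5 exons and 994 bases in Calca-201. Its first 46 bases, in capitals, are absent from Calca-201 (chr7:114632600-114632645, minus strand, GENCODE M21), and the next 30, in lower case, are shared.
Calca-203: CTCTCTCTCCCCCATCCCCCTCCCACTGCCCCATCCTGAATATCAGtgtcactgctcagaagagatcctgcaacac
It took 20.97% of Calca in WT 1 (481 TPM) and 34.4% in SMA+Pifithrin-alpha 3 (1146 TPM), and at most 0.597% in the other 13 libraries. Coding Calca transcripts alone summed to 1814 to 2836 TPM in WT and 1041 to 1712 TPM in SMA, still without overlap (log2 change -0.78, limma adjusted p 0.28).

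Calcb (ENSMUSG00000030666.11, chr7:114718643-114723365, plus strand), the neighbouring CGRP gene, measured 645, 1096 and 1517 TPM in WT and 547, 535 and 894 TPM in SMA. WT 1 lay below SMA 3, so the groups overlapped. The log2 change was -0.68 (SE 0.28, limma adjusted p 0.35), and without WT 1 and SMA+Pifithrin-alpha 3 it was -1.01 and called (adjusted p 0.040). Without WT 3 it was -0.39. Calca-201 and Calcb-201 share 32 of their 31-base words, 3.32% of those of Calca-201 and 3.43% of those of Calcb-201, so reads in that stretch could be assigned to either gene.

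Rbfox3 (ENSMUSG00000025576.17, chr11:118489762-118911597, minus strand) measured 64.9, 122 and 144 TPM in WT and 66.6, 74.4 and 77.5 TPM in SMA. SMA was narrow and WT wide, with WT 1 below all SMA libraries (log2 change -0.52, SE 0.38, limma adjusted p 0.50). The change was -0.86 without WT 1 and -0.29 without WT 3. Its most abundant transcript, Rbfox3-203, singled out after its values were seen, measured 39.1, 56.1 and 68.6 TPM in WT and 13.9, 26.6 and 34.1 TPM in SMA, without overlap. The share of all transcripts apart in this way was not computed, so this separation cannot be weighed. The other Rbfox3 transcripts together overlapped, at 25.8, 65.6 and 75.6 TPM in WT and 52.7, 47.8 and 43.4 TPM in SMA. The sense-strand models Gm11749 and Gm25040 and the opposite-strand Gm11750 overlap Rbfox3, and whether the counting used strand is not given in the sources used here.

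Gfra1 (ENSMUSG00000025089.15, chr19:58235604-58455909, minus strand) encodes the receptor for the trophic factor GDNF and is enriched in gamma motor neurons. It measured 56.1, 81.6 and 97.4 TPM in WT and 130.1, 109.9 and 105 TPM in SMA. All SMA libraries lay above all WT libraries, by little for WT 3, and the log2 change was 0.58 (SE 0.30, 95% interval -0.05 to 1.21, limma adjusted p 0.40). It was smaller with median-of-ratios scaling (0.33) and without WT 1 (0.36). Its coding transcript Gfra1-201 held 48.7% to 79.4% of the gene. The antisense gene Gm16277 overlaps Gfra1.

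Wnt7a (ENSMUSG00000030093.7, chr6:91363981-91411363, minus strand), a secreted Wnt ligand used as an early gamma marker, spread 10.2-fold over the 15 libraries. It measured 3.06, 7.66 and 18.4 TPM in WT and 6.04, 14.5 and 31.1 TPM in SMA. The groups overlapped widely (log2 change 0.79, SE 0.56, limma adjusted p 0.50). The change was 0.23 without WT 1, 0.25 without SMA 3, 1.36 without WT 3 and 1.34 without SMA 1.

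Esrrg (ENSMUSG00000026610.13, chr1:187608791-188214885, plus strand) encodes estrogen-related receptor gamma. It measured 86.8, 27.5 and 43.7 TPM in WT and 21.4, 40.6 and 41.1 TPM in SMA. The groups overlapped (log2 change -0.51, SE 0.36, limma adjusted p 0.50). The WT mean rested on WT 1: the change was -0.073 without it, -0.88 without WT 2 and -0.20 without SMA 1. The non-coding model Esrrg-205 held 3.52% to 28.6% of the gene, and 4 further genes overlap it, of which Gm36388, Gm37929 and 9330162B11Rik lie on the opposite strand.

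Esrrb (ENSMUSG00000021255.17, chr12:86361117-86521628, plus strand), the related receptor beta, measured 9.15, 5.35 and 8.99 TPM in WT and 2.69, 10.8 and 8.19 TPM in SMA, with overlap (log2 change -0.23, SE 0.43, limma adjusted p 0.80). Without WT 1 the change was -0.11. Htr1d (ENSMUSG00000070687.11, chr4:136423524-136444398, plus strand), a serotonin receptor found on gamma motor neurons, was low, at 0.173, 3.47 and 0.945 TPM in WT and 1.16, 0.869 and 1.35 TPM in SMA. Its log2 change was -0.04 (95% interval -1.17 to 1.10, limma adjusted p 0.98), and without WT 1 it was -0.48. The interval holds more than a doubling in either direction, so a difference in Htr1d was not resolved.

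**Figure D2:**
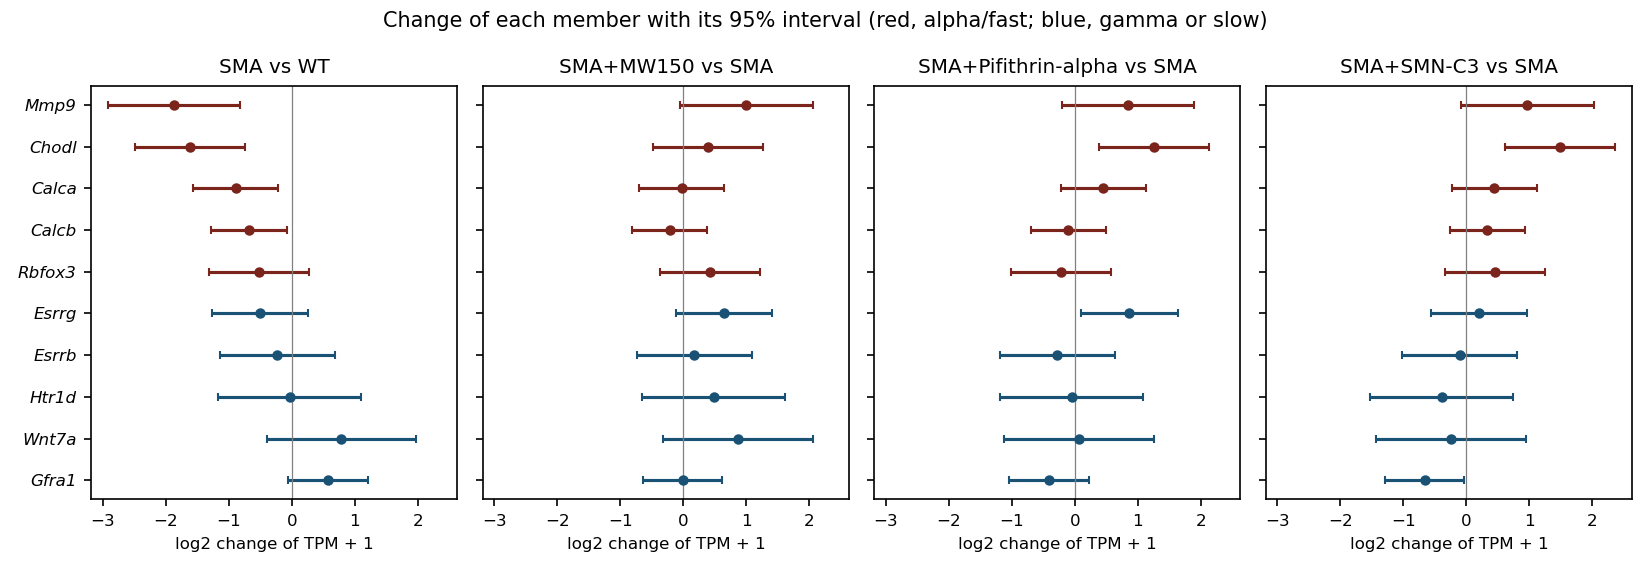
Log2 change (horizontal axes, on the log2(TPM + 1) scale) of each marker in SMA against WT and in each treated group against SMA, with its 95% interval from limma, unadjusted; alpha/fast markers are red and gamma/slow markers blue. Chodl is at -1.61 in SMA against WT and at 1.49 with SMN-C3 against SMA.

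The mean log2(TPM + 1) over the alpha/fast list was 7.90, 8.23 and 8.65 in the WT libraries and 6.76, 6.87 and 7.81 in the SMA libraries. Over the gamma/slow list it was 3.58, 3.83 and 4.13 in WT and 3.47, 4.12 and 4.31 in SMA. Counting all transcripts, the WT and SMA libraries were thus apart in the first list and overlapped in the second. The gap between WT 1 (7.90) and SMA 3 (7.81) in the first list depends on non-coding transcripts. In WT 1 the coding transcripts made up 2.81 of 13.96 TPM of Mmp9 and 1814 of 2296 TPM of Calca. On coding transcripts alone WT 1 would lie below SMA 3, so the first list would overlap too. The alpha/fast mean minus the gamma/slow mean was 4.33, 4.402 and 4.52 in WT and 3.30, 2.76 and 3.50 in SMA. With median-of-ratios scaling the gamma/slow mean was lower in SMA than in WT (-0.088) instead of higher (0.12). These scores describe lists chosen with earlier results known and carry no test.

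**Figure D3:**
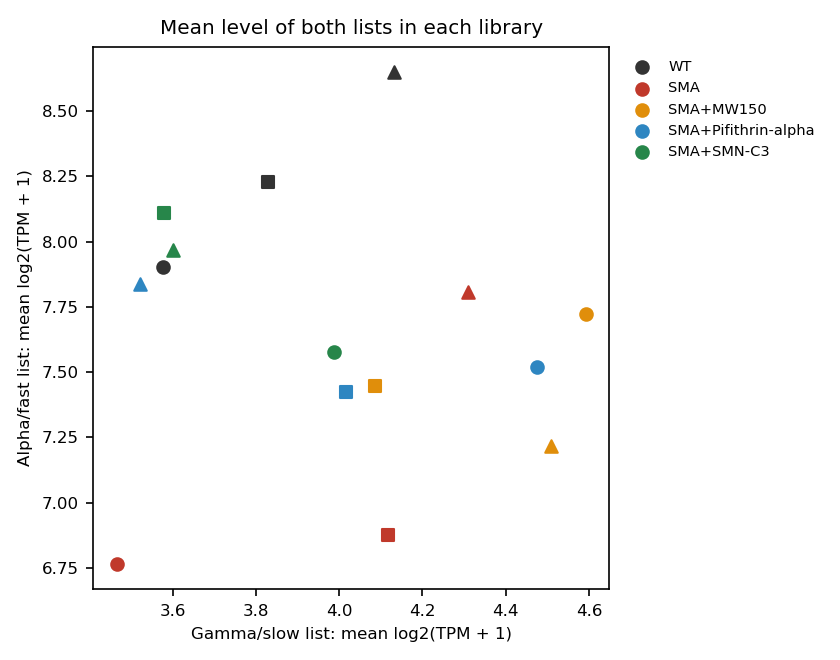
Mean log2(TPM + 1) of the gamma/slow list (horizontal) and of the alpha/fast list (vertical) in each of the 15 libraries, coloured by group, with circles, squares and triangles for replicates 1, 2 and 3. SMA 1 and SMA 2 have the lowest alpha/fast means (6.76 and 6.87), and SMA 3 (7.81) lies closer to WT 1 (7.90).

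Markers of other cells were also measured, and their median log2 changes in SMA against WT were 0.90 over microglial, 0.45 over astrocyte and 0.90 over oligodendrocyte genes, against 0.24 over all tested genes. Microglial markers (9 genes) summed to 19.4 to 47.4 TPM in WT and 83.9 to 129.7 TPM in SMA, and C1qc, a complement gene among them, rose (log2 change 1.86, limma adjusted p 0.014), the 1 gene of these lists that was called. Astrocyte markers summed to 950 to 1848 TPM in WT and 1613 to 2291 TPM in SMA, and markers of the oligodendrocyte lineage to 646 to 1910 and 733 to 3848 TPM, both with overlap. All 9 genes of each of these lists were above 0 in every library. Spinal interneuron markers (9 genes) summed to 26.0 to 56.9 TPM in WT and 23.8 to 42.2 in SMA, with Pax2 at 0 in 6 and En1 at 0 in 3 of the 15 libraries. Vascular markers (9 genes) summed to 67.0 to 80.2 and 24.0 to 118 TPM, with Cdh5 at 0 in 2 libraries and Tek in 1, and markers of visceral motor neurons (3 genes) to 5.50 to 23.9 and 7.68 to 17.7 TPM. The motor neuron identity markers overlapped, at 11838 to 15585 TPM in WT and 9931 to 14465 TPM in SMA. The part of other cells in the marker values was not tested.

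The second set of comparisons asks how the same markers stood in SMA mice given each compound. The 3 treated groups were compared with the same SMA libraries, so their values are given side by side and share any peculiarity of that group, such as the high SMA 3. By limma with Benjamini-Hochberg adjustment, 0 of 10 members were called with any compound. Over all tested genes MW150 gave 1 call (0.00648%), Pifithrin-alpha 1 (0.00648%) and SMN-C3 10 (0.0648%). The median change of all tested genes was 0.06, -0.22 and -0.23 in these 3 comparisons. Members with an unadjusted p under 0.05 numbered 0, 2 (Chodl and Esrrg) and 2 (Chodl and Gfra1), against 1.9%, 10.7% and 8.53% of tested genes.

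With SMN-C3 the alpha/fast means were above SMA in 5 of 5 members, with a median log2 change of 0.45. Chodl measured 467, 541 and 605 TPM, above every SMA library; 2.52% of tested genes were higher without overlap. Its log2 change was 1.49 (SE 0.41, 95% interval 0.61 to 2.36, limma adjusted p 0.26), and 99.9% of tested genes had a smaller or equal change. Mmp9 measured 3.65, 14.9 and 10.9 TPM and overlapped SMA (log2 change 0.97, adjusted p 0.62).

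Calca measured 2103, 1686 and 1558 TPM with SMN-C3 (log2 change from SMA 0.44, limma adjusted p 0.75). Calcb measured 725, 873 and 824 TPM (0.33, adjusted p 0.80). Rbfox3 measured 75.3, 126 and 105 TPM (0.45, adjusted p 0.79). Each of these overlapped the SMA libraries.

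Of the gamma/slow members, 4 had lower means with SMN-C3 than in SMA and 1, Esrrg, a higher one, with a median log2 change of -0.25; with median-of-ratios scaling Esrrb (0.12) and Wnt7a (0.0015) turned sign. Gfra1 measured 79.8, 58.2 and 79.8 TPM, below every SMA library, as were 18.2% of tested genes (log2 change -0.66, 95% interval -1.29 to -0.03, limma adjusted p 0.57). With median-of-ratios scaling that change was -0.40. Wnt7a was narrow at 11.9, 12.5 and 11.1 TPM, inside the SMA range (-0.25, adjusted p 0.94). Esrrg measured 52.6, 32.4 and 32.2 TPM (0.20, adjusted p 0.92), Esrrb 6.18, 7.59 and 4.17 TPM (-0.11, adjusted p 0.97) and Htr1d 1.51, 0.0706 and 0.553 TPM (-0.39, adjusted p 0.89). The difference of the list means was 3.59, 4.53 and 4.37, above every SMA library and reaching the WT range in SMA+SMN-C3 2 and 3. Microglial markers summed to 41.3 to 57.6 TPM in this group, below the SMA libraries, and their part was not tested.

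With Pifithrin-alpha 3 of 5 alpha/fast changes from SMA were positive and 2 negative (median 0.45), and 2 of 5 gamma/slow changes were positive and 3 negative (median -0.05). Chodl measured 333, 366 and 774 TPM (log2 change from SMA 1.25, 95% interval 0.38 to 2.13, limma adjusted p 0.46), and SMA+Pifithrin-alpha 1 and 2 lay inside the SMA range. Calca measured 1235, 1361 and 3326 TPM (0.45, adjusted p 0.54). Both were highest in SMA+Pifithrin-alpha 3, the library with 20.4% mitochondrial TPM and the retained-intron Calca-203. Without it and WT 1, Calca was at -0.0028 and Chodl at 0.87 on the log2 scale.

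Esrrg measured 61.5, 63.2 and 58.3 TPM with Pifithrin-alpha, above every SMA library; 5.53% of tested genes were. Its log2 change was 0.87 (SE 0.36, 95% interval 0.10 to 1.63, limma adjusted p 0.46), and 0.57 without SMA 1. Mmp9 measured 7.48, 6.01 and 10.4 TPM (0.84, adjusted p 0.48) and Calcb 563, 591 and 632 TPM (-0.11, adjusted p 0.88). Rbfox3 measured 104, 71.2 and 32.5 TPM, Wnt7a 25.7, 17.7 and 7.19 TPM, and Gfra1 118, 101 and 52.5 TPM. In these last 3 genes SMA+Pifithrin-alpha 3 was the lowest of its group (log2 changes -0.22, 0.07 and -0.41). Esrrb measured 7.96, 4.97 and 3.18 TPM and Htr1d 2.07, 0.519 and 0.840 TPM (-0.28 and -0.05). With median-of-ratios scaling the changes of Calcb, Rbfox3 and Htr1d turned to 0.16, 0.040 and 0.075. Without SMA+Pifithrin-alpha 3 the change of Gfra1 was -0.065, and on coding transcripts alone that of Mmp9 was 0.50. The difference of the list means was 3.04, 3.41 and 4.31, above the SMA range in SMA+Pifithrin-alpha 3 alone.

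Most markers of microglia, astrocytes and the oligodendrocyte lineage had negative log2 changes with Pifithrin-alpha against SMA, with none called. Microglial markers summed to 24.8 to 70.9 TPM, below the SMA libraries, with 0 of 8 tested genes positive and a median log2 change of -1.27. The median was -1.15 over the oligodendrocyte lineage (0 of 9 positive) and -0.53 over astrocyte markers (1 of 9), against -0.22 over all tested genes. With SMN-C3 the same medians were -1.05, -0.67 and -0.85, and with MW150 -0.17, 0.16 and -0.06. Their part in the members' values was not tested.

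With MW150, 3 of 5 alpha/fast means were above SMA and 2 below, with a median log2 change of 0.39. Chodl measured 376, 221 and 186 TPM (log2 change from SMA 0.39, 95% interval -0.49 to 1.27), Calca 1396, 1314 and 1125 TPM (-0.03, -0.70 to 0.65) and Calcb 622, 544 and 492 TPM (-0.22, -0.81 to 0.38). Mmp9 measured 10.01, 8.31 and 8.22 TPM (1.001, -0.05 to 2.05) and Rbfox3 116, 108 and 75.2 TPM (0.43, -0.37 to 1.22). The limma adjusted p was 1 for all 10 members in this comparison.

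Of the gamma/slow members, 4 had higher means with MW150 than in SMA, with a median log2 change of 0.48. Esrrg measured 54.1, 45.6 and 57.3 TPM, above every SMA library, as were 7.53% of tested genes (log2 change 0.64, 95% interval -0.12 to 1.41). It was 0.34 without SMA 1 and 0.42 on coding transcripts alone. On these the groups overlapped, at 32.5 to 45.8 TPM with MW150 and 19.2 to 39.0 TPM in SMA. Wnt7a measured 25.3, 26.5 and 28.3 TPM (0.87), inside the SMA range, whose upper end is SMA 3. Gfra1 measured 129, 116 and 97.4 TPM (-0.01), Esrrb 7.17, 5.80 and 9.38 TPM (0.18) and Htr1d 4.29, 0.389 and 2.51 TPM (0.48). The difference of the list means was 3.13, 3.36 and 2.71, within or just below the SMA range.

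The treated groups were also set against WT, where limma called 0 of 10 members each time. Over all tested genes MW150 gave 22 calls (0.143%), Pifithrin-alpha 18 (0.117%) and SMN-C3 3 (0.0194%). With MW150, 4 of 5 alpha/fast members, Mmp9, Chodl, Calca and Calcb, lay below WT without overlap, against 2% of tested genes. Their log2 changes came to -0.87, -1.22, -0.92 and -0.89 (limma adjusted p 0.51, 0.43, 0.43 and 0.38). Wnt7a lay above WT without overlap, against 17.9% of tested genes (1.65, 95% interval 0.46 to 2.84, limma adjusted p 0.43). Without WT 1 that change was 1.09. On coding transcripts alone the change of Mmp9 with MW150 was 0.076, so its direction turned.

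With Pifithrin-alpha, 2 of 5 alpha/fast members lay below WT without overlap, Mmp9 (log2 change -1.03, limma adjusted p 0.87) and Calcb (-0.78, adjusted p 0.74), against 2.07% of tested genes. On coding transcripts alone Mmp9 overlapped WT, with a change of -0.40. With SMN-C3 only Calca among the 5 lay below WT without overlap (-0.45, limma adjusted p 0.70), against 8.82% of tested genes. On coding transcripts alone Calca overlapped WT, at 1558 to 2102 TPM with SMN-C3 and 1814 to 2836 TPM in WT (log2 change -0.33). None of the gamma/slow members was apart from WT with these 2 compounds. Whether the compounds differed from each other was not tested.

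**Figure D4:**
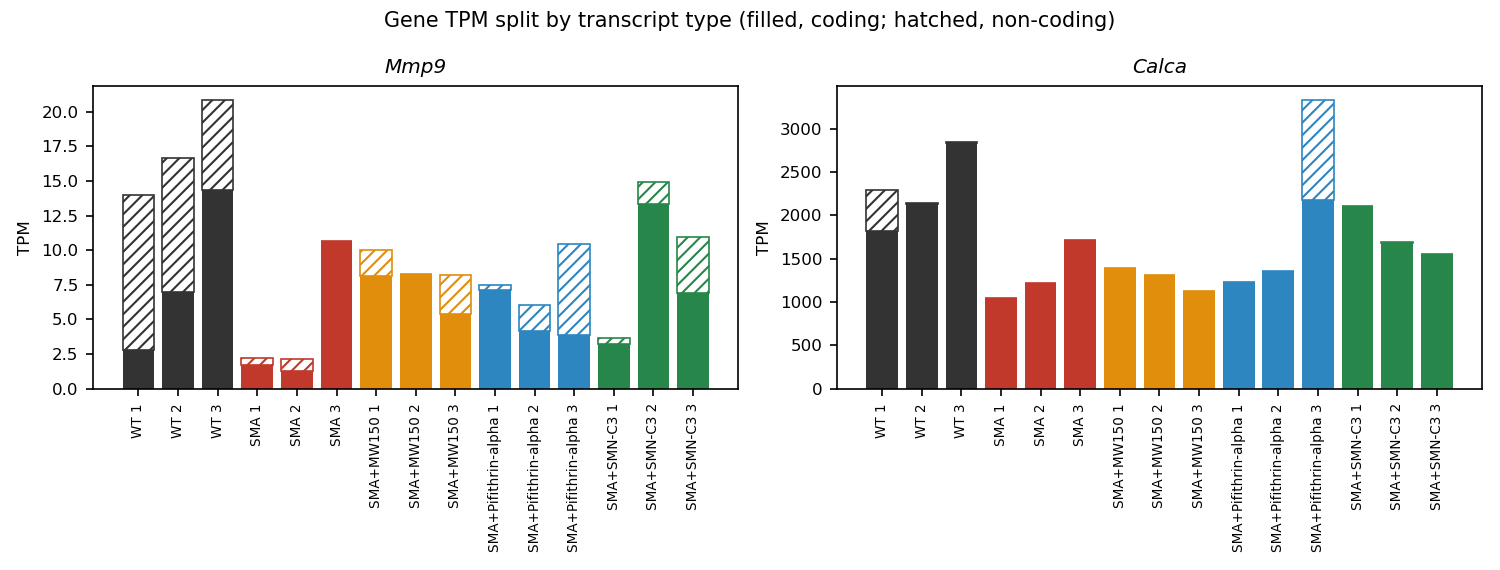
TPM of Mmp9 (left) and Calca (right) in each library, coloured by group, with coding transcripts filled and non-coding transcripts hatched on top. The hatched part of Calca stands out in WT 1 (481 TPM) and SMA+Pifithrin-alpha 3 (1146 TPM), and that of Mmp9 in the 3 WT libraries and SMA+Pifithrin-alpha 3.

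A further list of 6 alpha or fast markers, with none called in any comparison, had 1 higher and 5 lower means in SMA than in WT. The median log2 change was -0.39, beside 0.24 over all tested genes. Against the shared SMA libraries, 5 log2 changes were positive and 1 negative with each of the 3 compounds. The medians were 0.48 for MW150, 0.23 for Pifithrin-alpha and 0.55 for SMN-C3, beside 0.06, -0.22 and -0.23 over all tested genes. Spp1, which encodes osteopontin, averaged 116 ± 40.1 TPM in WT, 73.1 ± 71.4 in SMA, 109.6 ± 11.5 in SMA+MW150, 180.4 ± 99.2 in SMA+Pifithrin-alpha and 179 ± 37.1 in SMA+SMN-C3 (SD, n = 3). Its SMA libraries ran from 21.4 to 155 TPM and overlapped WT (log2 change -1.08, limma adjusted p 0.37). Dlk1, a Notch-related membrane protein of fast motor neurons, averaged 88.0 ± 24.7 TPM in WT and 60.6 ± 28.1 in SMA (-0.61, adjusted p 0.45).

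A further list of 9 slow or gamma markers, also with none called, had 6 higher and 3 lower means in SMA than in WT. The median log2 change was 0.37, beside 0.24 over all tested genes. The synaptic vesicle genes Sv2c and Sv2a had the highest mean TPM of them over the 15 libraries. The highest and lowest log2 changes in this list were those of Prkcd, a protein kinase C gene, and Plch1, both named after their values were seen. Prkcd lay at 2.62 to 5.23 TPM in WT and 7.37 to 29.2 TPM in SMA (log2 change 1.57, limma adjusted p 0.24). Plch1 went the other way, at 13.1 to 65.8 TPM in WT and 8.77 to 11.7 TPM in SMA (log2 change -1.18, limma adjusted p 0.30). Sv2c averaged 66.6 ± 12.8 TPM in WT and 74.9 ± 3.95 in SMA (log2 change 0.18, limma adjusted p 0.76). Sv2a averaged 20.4 ± 5.74 and 32.8 ± 6.82 TPM (0.68, limma adjusted p 0.46). It was higher in SMA without overlap, as were 14.5% of all tested genes.

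Ligands, receptors, inhibitors and paralogs of the members made a list of 39 genes, of which 33 were tested and 0 were called in any of the 7 comparisons. In SMA against WT 26 had positive and 7 negative log2 changes, with a median of 0.29 beside 0.24 over all tested genes. Among the CGRP receptor genes, the accessory subunit Ramp1 averaged 53.0 TPM in WT and 68.7 in SMA (log2 change 0.49) and Ramp2 57.3 and 43.8 TPM (-0.27). Among the partners of Gfra1, the signalling receptor Ret averaged 157 and 177 TPM (0.18) and the adhesion molecule Ncam1 159 and 191 TPM (0.23). All 7 tested genes of that pathway had positive log2 changes in SMA against WT, of 0.04 for Gfra2, whose mean TPM was slightly lower in SMA. With SMN-C3 against SMA all 7 were negative. The medians of 0.23 and -0.30 were near those of all tested genes, 0.24 and -0.23. Pspn was at 0 in 5 libraries and Artn in 3. The limma adjusted p of Ramp1, Ramp2, Ret and Ncam1 in SMA against WT lay from 0.59 to 0.77.

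Timp3 and Timp2, inhibitors of metalloproteinases such as Mmp9, averaged 139 and 79.1 TPM in WT and 135 and 99.2 TPM in SMA (log2 changes 0.01 and 0.39). The Rbfox3 paralogs Rbfox1 and Rbfox2 averaged 255 and 16.1 TPM in WT and 234 and 17.4 TPM in SMA (-0.10 and 0.13). Esrra, the third estrogen-related receptor, lay at 5.83 to 10.3 TPM in WT and 15.4 to 18.9 TPM in SMA (0.88, limma adjusted p 0.38). It too was higher in SMA without overlap, as were 14.5% of all tested genes. Its coactivator Ppargc1a averaged 7.39 and 10.6 TPM (0.46). The serotonin receptors Htr2a and Htr7 averaged 24.6 and 19.0 TPM in WT, above Htr1d, and 18.2 and 20.2 TPM in SMA (-0.37 and 0.23). The Wnt co-receptor Lrp6 averaged 6.14 and 7.04 TPM (0.35) and Wnt7b 5.35 and 8.26 TPM (0.64).

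The genes most like Mmp9 over the 15 libraries were Mtap, Nrp2 and Layn, with root mean square differences of 0.574, 0.574 and 0.588 between values standardised per gene. Those most like Esrrg were Tbc1d32, Zfp939 and Sclt1, at 0.271, 0.380 and 0.406. The nearest genes to Esrrg were thus closer to it than those nearest to Mmp9 were to Mmp9. These likenesses describe the 15 libraries, which share their groups and library quality.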

How the data were processed

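RNA was measured in 15 libraries, 3 per group. The authors deposited TPM per gene and per transcript. Per the submitters' processing notes, kallisto 0.44.0, DESeq2 and the builds GRCm38.p6 and mm10 were used; trimming, strand setting and annotation are not given in the sources used here. Of 118489 transcripts, 116728 (98.5%) matched GENCODE M21, the source of coordinates and transcript types. Every library sums to 1000000 TPM, so depth is unknown and no detection limit is given. No 2 libraries were identical (r across genes 0.838 to 0.972 over 105 pairs).

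The 15425 genes that reached 1 TPM in 3 or more libraries were fitted as log2(TPM + 1) with limma 3.58.1 (R 4.3.3), 1 mean per group, all 15 libraries, variance trend on; this scale understates changes of low genes. Tests are two-sided, Benjamini-Hochberg adjusted within each of 7 comparisons and called under 0.05. The script was tested on simulated data. Members and gene lists were chosen with earlier results of these data known. All 10 members are described. Of each further list, called genes are named, otherwise the 2 with the highest mean TPM. Prkcd and Plch1 were named in addition, after their values were seen. Likeness is the root mean square difference of standardised values. Promoters are from RefSeq (8 of 10 members matched). Figures used Python 3.11.15, pandas 2.3.3 and matplotlib 3.10.9. Alternatives were another pseudocount, no filter, median-of-ratios scaling, a replicate block, only the compared groups, fewer libraries and, chosen after seeing the data, coding transcripts only.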

Additional observations from a re-analysis of the deposited data

How the results depend on the processing

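Across the alternatives, 624 recomputed values of 48 member changes were compared with the reported ones. In 583 the direction and the side of the threshold were kept, 4 crossed the threshold and 37 changed sign, all of them uncalled. No reported member change was called, so none could lose a call. The crossings are Calcb without the pair of highest mitochondrial share, at -1.01 in SMA and -1.23 with MW150 against WT (adjusted p 0.040 and 0.016), and Mmp9 (-2.49) and Chodl (-2.15) in SMA against WT without SMA 3. The causes were not tested. TPM gives no depth, so the smallest detectable level is unknown.

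Sign changes by setting were these. With a pseudocount of 0.1, Htr1d in SMA against WT was 0.27. With median-of-ratios scaling, Calcb, Rbfox3 and Htr1d with Pifithrin-alpha against SMA were 0.16, 0.040 and 0.075, Esrrb and Wnt7a with SMN-C3 against SMA 0.12 and 0.0015, and the gamma/slow list mean in SMA minus WT -0.088. Without the pair of high mitochondrial share, Calca, Rbfox3 and Htr1d with Pifithrin-alpha against SMA were -0.0028, 0.24 and 0.029. On coding transcripts only, an alternative chosen after seeing the data, Htr1d in SMA against WT was 0.22, Wnt7a with Pifithrin-alpha against SMA -0.027 and Mmp9 with MW150 against WT 0.076.

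With 1 library left out, changes in SMA against WT ranged from -0.57 to 0.27 for Esrrb and -0.48 to 0.49 for Htr1d. With MW150 against SMA they ranged from -0.19 to 0.17 for Calca, -0.35 to 0.024 for Calcb, -0.32 to 0.52 for Esrrb and -0.10 to 0.10 for Gfra1. With Pifithrin-alpha against SMA they ranged from -0.0028 to 0.71 for Calca, -0.23 to 0.14 for Calcb, -0.58 to 0.24 for Rbfox3, -0.78 to 0.061 for Esrrb, -0.34 to 0.17 for Htr1d and -0.48 to 0.61 for Wnt7a. With SMN-C3 against SMA they ranged from -0.10 to 0.36 for Esrrg, -0.61 to 0.23 for Esrrb and -0.80 to 0.29 for Wnt7a.

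The counts of called genes moved more. In SMA against WT 35 were called with no filter, 15 with only these groups fitted, 88 without the high mitochondrial pair (1 member, Calcb) and 20 to 56 with 1 library left out (0 to 2 members). With MW150 against SMA the counts were 0 at pseudocount 0.1, 2 with no filter, 2 with only these groups and 0 to 1 with a library left out. With Pifithrin-alpha against SMA they were 0, 3, 0 and 0 to 1 in the same order. With SMN-C3 against SMA, 21 were called with only these groups, 166 without the pair and 0 to 11 with a library left out. Against WT, MW150 gave 13 with no filter, 42 without the pair (1 member) and 9 to 22 with a library left out. Pifithrin-alpha gave 6 with no filter, 0 with only these groups and 5 to 30; SMN-C3 gave 5 with median-of-ratios scaling, 7 without the pair, 5 on coding transcripts and 2 to 8. The F test gave 17, 131 (1 member) and 20 to 47 with no filter, without the pair and with a library left out.

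Equal replicate numbers were not treated as pairs. The labels do not say whether they share a litter or day, and the correlations below do not settle it. Deviations of same-numbered libraries correlated from -0.34 to 0.29 (median 0.0079, 4 of 30 pairs over 0.1). Those of different-numbered libraries correlated from -0.25 to 0.34 (median 0.0078, 16 of 60 pairs over 0.1). With the replicate number as a block, 48, 1, 1 and 11 genes were called in SMA against WT and in MW150, Pifithrin-alpha and SMN-C3 against SMA, 25, 15 and 3 for the same compounds against WT and 30 by the F test, with 0 members in each.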
